A study of Homo sapiens with 24 samples.

Results

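The genes that encode the subunits of the kinesin, cytoplasmic dynein and dynactin motors were followed in human LUHMES neurons grown in 3D, between day 8 and day 15 of differentiation and through exposure to rotenone. The set was chosen by name. It holds every protein-coding gene with a probe on the array whose symbol begins with KIF, KLC, DYNC, DYNLL, DYNLT, DYNLRB or DCTN and then a digit, which gave 67 of 18226 protein-coding genes with a named probe. Of these, 66 passed the filter on dim signal and were tested among 21239 genes, while DYNLT5 did not pass. LUHMES cells are an immortalized line from human midbrain progenitors that stops dividing and becomes dopaminergic neurons once its transgene is switched off, and here they were grown as aggregates on a shaker. All cells carried that transgene. Aggregates received 50 nM rotenone for 12 h, 50 nM for 24 h, 100 nM for 24 h or the vehicle DMSO from day 7 of differentiation. They were collected on day 8, or rotenone was washed out and they were collected on day 15, which gave 8 groups of 3 replicate wells with 1 Agilent 1-colour array each.

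Kinesins and cytoplasmic dynein walk along microtubules with energy from ATP. In a dividing cell, the mitotic kinesins build the spindle, move chromosomes and complete cytokinesis. In a neuron, kinesin-1, kinesin-2 and kinesin-3 carry mitochondria, vesicles and synaptic precursors from the cell body into the axon, and dynein-1 with its partner dynactin carries cargo back. Other members work in cilia, where dynein-2 is the return motor. The 67 genes were therefore divided into 12 mitotic kinesins, 20 axonal and transport motors, 10 ciliary and other kinesins, 11 subunits of dynein-1, 8 of dynein-2 and ciliary dynein, and 6 of dynactin. Rotenone blocks complex I in mitochondria and is used to model the loss of dopaminergic neurons in Parkinson's disease.

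Levels are given as normalized log2 signal, changes as log2 fold changes with the standard error (SE) of the limma fit, and adjusted p values as limma's with Benjamini-Hochberg adjustment over all 21239 genes. A gene was called at an adjusted p under 0.05, without a minimum fold change unless one is stated. Levels of different genes come from different probes and were not compared. The 3 replicates of a group lay on 3 slides, 1 array of every group per slide, and slide 1 was scanned apart from the other slides and corrected for it. Each group held the same position on every slide, so position and treatment cannot be told apart. Between 50.9% and 82.4% of spots per array were well above background, with the higher values on slide 1. The scan name of DMSO replicate 1 on day 15 does not name DMSO, and its group rests on its label. The neuron markers were well above background on all arrays (8 of 8 genes in every group, TUBB3, MAP2 and STMN2 among them), and of 5 astrocyte markers none was so on all 3 arrays in 7 of the 8 groups.

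Of the 67 genes, 45 were well above background on all 3 arrays of all 8 groups. Among the 12 mitotic kinesins this held for 2, KIF20B and KIF22, against 18 of the 20 axonal and transport motors. On day 8, 9 of the 12 mitotic kinesins were well above background on all 3 arrays of DMSO. There it was 10 of the 12 with 50 nM for 12 h, and 6 of the 12 with 50 nM and with 100 nM for 24 h. On day 15 it was 2 of the 12 in DMSO and 2 to 4 with rotenone. KIF2B, KIF18B, KIF9, KIF12, DYNLRB2 and DYNLT5 reached it in no group. Small changes of these dim genes are measured with less certainty than those of the axonal motors.

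Between day 8 and day 15 the DMSO controls lost signal of mitotic kinesins and gained signal of axonal ones. Of the 66 motor genes tested, 15 were upregulated and 17 downregulated on day 15, in a comparison in which limma called 23.2% of all genes. With a fold change over 1.5 these were 5 and 9 genes, where 12.2% of all genes passed. All 12 mitotic kinesins had negative changes and 8 were downregulated, while 13.2% of all genes were downregulated. Among the 20 axonal and transport motors 18 had positive changes, 7 were upregulated and 1 was downregulated, against 10.1% of all genes upregulated. The median change was -0.67 for the mitotic kinesins, 0.18 for the axonal and transport motors and -0.04 for all genes. Dynein-1 and dynactin changed in both directions. Of the 32 calls, 14 were kept whichever of the 6 arrays was left out, those of KIF11, KIF2C, KIF18A, KIF20A, KIF22, KIF5A, KIF3C, KIF21B, KIF16B, KIF24, KIF26A, KIF26B, DYNLL1 and DYNLRB1. The other 18 were lost without at least 1 of the arrays, with adjusted p of up to 0.19. When scaling to the 75th percentile replaced quantile normalization, 22 of the 32 were called, and those of DCTN1, DCTN2, DYNC1I1, DYNLRB2, DYNLT1, KIF19, KIF1B, KIF20B, KIF26B and KIF3B were not.

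**Figure D1:**
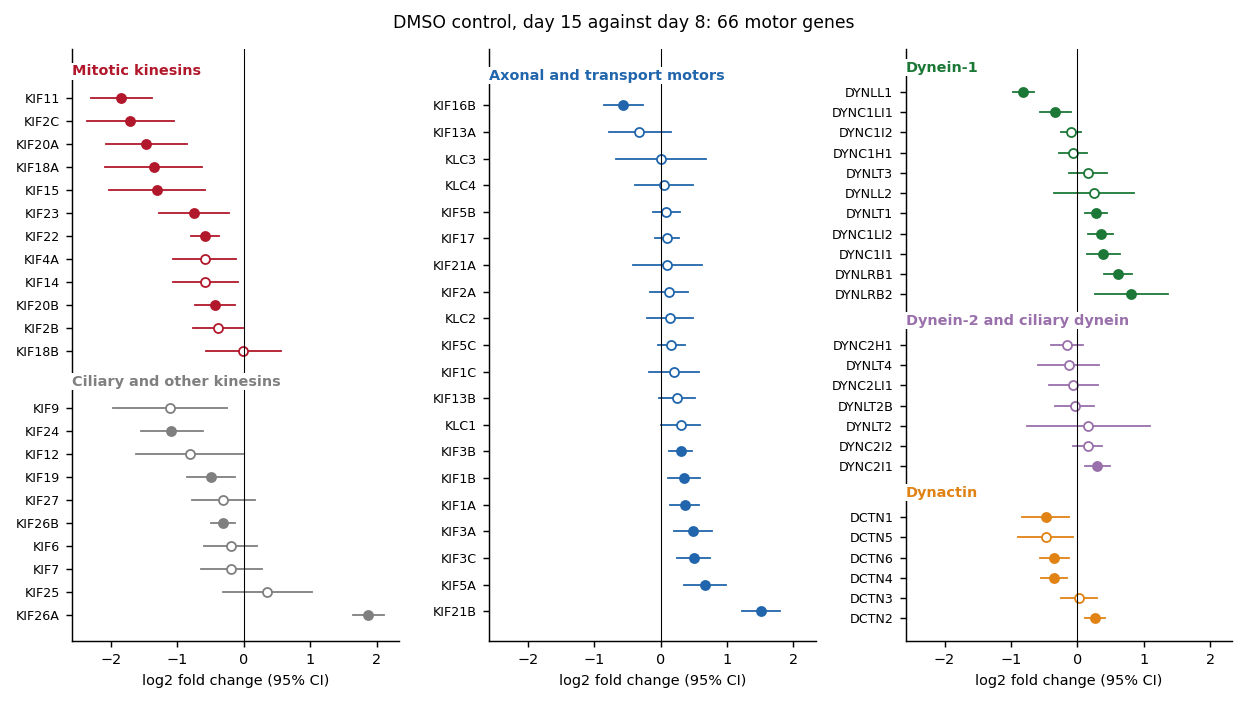
Change of each of the 66 motor genes from day 8 to day 15 in DMSO, as log2 fold change on the x axis, with points for the estimate, lines for the 95% confidence interval and filled points for genes called. Mitotic kinesins lie to the left of 0, down to -1.85 for KIF11, and KIF26A and KIF21B lie farthest to the right at 1.87 and 1.51, while KIF18A and KIF24 are drawn at fitted values although their day 15 arrays allow a bound alone, and DYNLRB2, KIF9 and KIF2B were not well above background on any array of either group.

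Markers of cell identity moved between the same days, and their part in the changes of motor genes was not tested. Of 7 dopaminergic markers, 3 were upregulated and 2 downregulated. TH, the rate-limiting enzyme of dopamine synthesis, fell from 9.70, 9.87 and 9.78 in DMSO on day 8 to 6.71, 6.84 and 6.96 on day 15 (change -2.94, SE 0.23, adjusted p = 2.2e-08). SLC6A3, the dopamine transporter, changed by -2.07 (adjusted p = 1.3e-05), and NR4A2, a transcription factor of these neurons, by 1.57 (adjusted p = 2.3e-07). Of 8 neuron markers, NEFL rose by 0.52 (adjusted p = 0.0048) and MAP2 fell by 0.46 (adjusted p = 0.0064). OLIG2, a transcription factor of progenitors and the oligodendrocyte lineage, was 9.44, 9.28 and 9.37 and then 5.04, 5.50 and 5.54 (adjusted p = 1.2e-11), 1 of 4 markers of that lineage called. The 6 progenitor markers went both ways. VIM changed by 0.67 (adjusted p = 0.00033) and NOTCH1 by -0.96 (adjusted p = 0.005), and the others were not called.

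KIF11 (Eg5), which slides spindle microtubules apart, had the largest decrease of the set. Its signal was 7.15, 6.47 and 6.80 in DMSO on day 8 and 4.76, 5.22 and 4.90 on day 15. The groups did not overlap, and the change was -1.85 (SE 0.22, adjusted p = 3.5e-06). KIF2C, a kinesin-13 that takes microtubules apart at the centromere, fell from 7.40, 6.48 and 6.96 to 5.37, 5.19 and 5.16. Every day 15 array lay below every day 8 array, with a change of -1.71 (SE 0.31, adjusted p = 0.00047). KIF20A, needed for cytokinesis, fell from 5.83, 4.94 and 4.95 to 3.92, 3.78 and 3.64, a change of -1.47 (SE 0.29, adjusted p = 0.00095). Replicate 1 on day 8 stood above the other replicates for all 3 of these genes.

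KIF15, which backs up KIF11 in the spindle, changed by -1.31 (SE 0.34, adjusted p = 0.0092, and 0.066 without DMSO replicate 1 of day 8). KIF18A, which limits the swing of chromosomes, was well above background on all 3 arrays on day 8 and on none on day 15. Its decrease was called (adjusted p = 0.0073), with a bound of 2.39-fold. This sets the day 8 mean against each day 15 array's signal, or the array's dimmest signal well above background where that was higher. The fitted change ran from -1.76 to -0.37 over 12 settings, so the bound is no minimum over the processing. KIF22, a chromokinesin, went from 8.94, 8.72 and 8.81 to 8.29, 8.15 and 8.27, without overlap, a change of -0.59 (SE 0.098, adjusted p = 0.00019), and stayed well above background on every array. KIF20B changed by -0.43 (adjusted p = 0.037).

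KIF23, part of the centralspindlin complex of the midbody, fell from 5.4, 5.20 and 5.24 to 4.50, 4.56 and 4.51. Its change of -0.75 (SE 0.25, adjusted p = 0.034) rested on all 6 arrays, since the adjusted p rose to as much as 0.11 when single arrays were left out and no such fit called it. KIF4A and KIF14 were also lower on all DMSO arrays of day 15 than on all DMSO arrays of day 8. Their changes were -0.59 and -0.58, with adjusted p of 0.067 and 0.082. Over the arrays of all groups the 2 days overlapped for both genes. The 2 probes of KIF4A gave -0.97 and -0.21. KIF2B and KIF18B were not called, with 95% confidence intervals of -0.77 to -0.01 and -0.57 to 0.56, and KIF2B was not well above background on any array of either group.

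Mitotic genes are often switched through a short promoter element, the cell cycle genes homology region (TTTGAA), and through CCAAT boxes, which the factor NF-Y binds. Promoters from RefSeq (GRCh38.p14, 250 bases before to 50 after the start) were at hand for 56 of the 67 genes, among them all 12 mitotic kinesins, and were searched on both strands. TTTGAA was found in 8 of the 12 mitotic kinesins (66.7%), against 12.1% of 15843 protein-coding promoters. It was found in 1 of 15 axonal and transport motors, KIF5B, and in 1 of 22 dynein and dynactin genes, DYNC2I2. CCAAT was found in 9 of the 12 mitotic kinesins, in 3 of 15 axonal and transport motors and in 36.4% of all promoters. The motifs can share bases at their ends, and both occurred in 7 mitotic kinesins (58.3%) and in 5.02% of all promoters. In KIF14, KIF18B and KIF20B the TTTGAA matches lay after the start. These are matches of letters and not shown to be bound.

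The 110 bases before the start are shown for 4 mitotic kinesins that hold TTTGAA there, for KIF20A with CCAAT boxes alone, for KIF2C with neither, and for 3 upregulated kinesins (KIF1A, KIF3A and KIF26A), whose stretches hold neither. They run 5′ to 3′ on the strand of the gene, with capitals for TTTGAA and for CCAAT, each also as its reverse complement (TTCAAA and ATTGG).
KIF11, chr10:92593020-92593129, plus strand: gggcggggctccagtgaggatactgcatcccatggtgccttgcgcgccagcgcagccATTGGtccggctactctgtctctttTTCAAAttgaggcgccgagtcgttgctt
KIF15, chr3:44761684-44761793, plus strand: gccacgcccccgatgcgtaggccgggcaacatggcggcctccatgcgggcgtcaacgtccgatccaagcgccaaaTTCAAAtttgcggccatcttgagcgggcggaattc
KIF18A, chr11:28108157-28108266, minus strand: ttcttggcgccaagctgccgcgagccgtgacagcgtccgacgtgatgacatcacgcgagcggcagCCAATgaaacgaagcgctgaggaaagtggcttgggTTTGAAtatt
KIF23, chr15:69414239-69414348, plus strand: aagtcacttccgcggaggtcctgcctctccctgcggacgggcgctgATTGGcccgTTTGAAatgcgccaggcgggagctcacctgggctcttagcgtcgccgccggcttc
KIF20A, chr5:138179002-138179111, plus strand: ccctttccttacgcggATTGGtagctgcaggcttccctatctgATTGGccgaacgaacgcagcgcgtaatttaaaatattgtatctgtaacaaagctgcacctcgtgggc
KIF2C, chr1:44739727-44739836, plus strand: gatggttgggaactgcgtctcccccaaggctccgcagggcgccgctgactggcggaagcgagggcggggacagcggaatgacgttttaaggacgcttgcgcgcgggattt
KIF1A, chr2:240821404-240821513, minus strand: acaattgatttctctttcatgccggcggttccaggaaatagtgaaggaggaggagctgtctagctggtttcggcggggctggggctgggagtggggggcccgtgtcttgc
KIF3A, chr5:132737547-132737656, minus strand: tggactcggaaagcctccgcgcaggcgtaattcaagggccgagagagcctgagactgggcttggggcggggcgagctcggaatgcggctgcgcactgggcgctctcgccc
KIF26A, chr14:104138477-104138586, plus strand: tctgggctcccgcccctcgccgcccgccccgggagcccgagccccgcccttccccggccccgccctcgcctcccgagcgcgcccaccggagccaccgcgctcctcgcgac
Positions are those of the leftmost base of a match as printed, counted from the start. In KIF11 both motifs lay on the minus strand, with ATTGG at -53 and TTCAAA at -28. In KIF18A both lay on the plus strand, with CCAAT at -45 and TTTGAA at -10. Of the 8 mitotic kinesins with TTTGAA in the whole window, 5 were downregulated on day 15, and of the 4 without it 3 were. KIF4A, KIF14 and KIF18B hold it and were not called, and KIF2C, which holds neither motif, was downregulated. The 3 upregulated kinesins shown are examples and do not stand for all. Of other upregulated ones, KIF3B holds CCAAT at -78 and KIF1B at -157 and -126, while KIF3C holds neither motif.

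**Figure D2:**
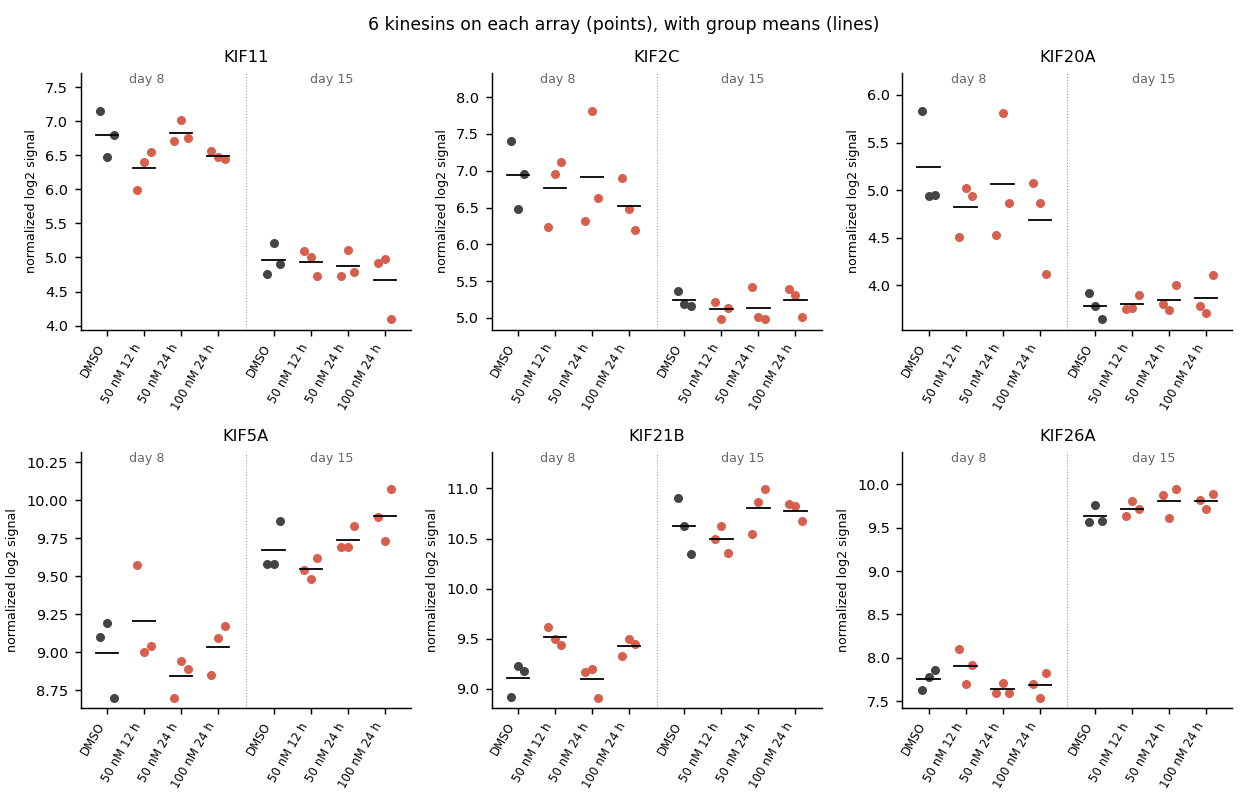
Normalized log2 signal (y axis) of KIF11, KIF2C, KIF20A, KIF5A, KIF21B and KIF26A on every array, with points for single arrays in order of replicate and lines for group means, in DMSO (dark) and rotenone (red) groups of day 8 and day 15. The day 15 arrays of KIF11, KIF2C and KIF20A lie below all day 8 arrays and those of KIF21B and KIF26A above them, while 1 day 8 array of KIF5A, at 9.57, reaches the day 15 range; the y axes do not start at 0.

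The decrease of mitotic kinesins ran beside that of other cell cycle genes. Of 17 proliferation markers tested, 13 were downregulated on day 15 and none upregulated, with a median of -1.22. The mean level of these markers was 7.12, 6.35 and 6.47 in DMSO on day 8 and 5.30, 5.47 and 5.42 on day 15. That of the 12 mitotic kinesins was 5.90, 5.55 and 5.63 and then 4.82, 4.86 and 4.63, with the same array highest on day 8. With 50 nM for 24 h on day 8, replicate 2 was highest in both lists, at 7.02 and 5.93. CENPE, a kinesin of the kinetochore whose symbol lies outside the rule, fell from 7.48, 6.68 and 6.89 to 5.34, 5.61 and 5.65 (change -1.48, SE 0.29, adjusted p = 0.00092). Whether fewer cells of a dividing type or less RNA per cell gave these values cannot be told apart in bulk RNA.

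**Figure D3:**
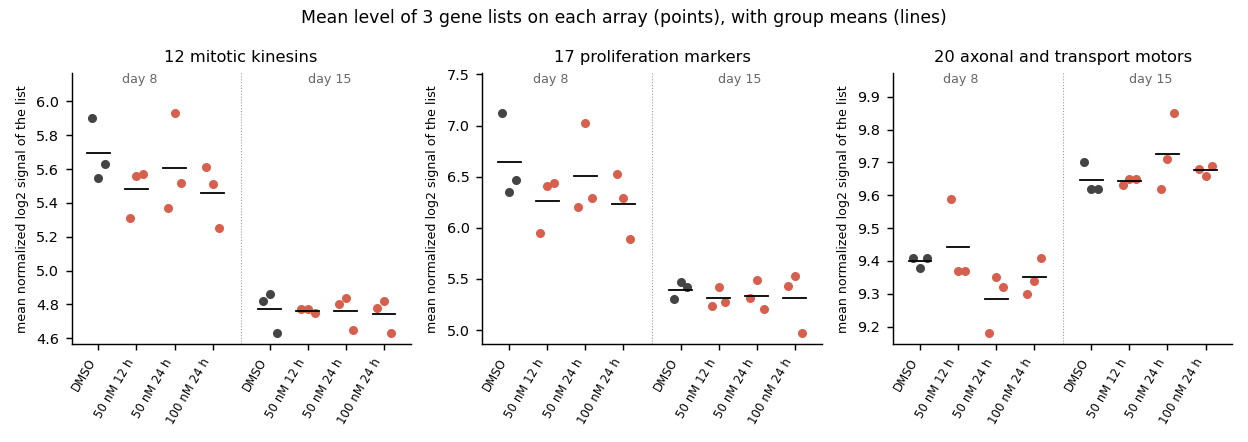
Mean normalized log2 signal (y axis) of the 12 mitotic kinesins, 17 proliferation markers and 20 axonal and transport motors on every array (points), with group means (lines), for the DMSO (dark) and rotenone (red) groups of both days. Mitotic kinesins and proliferation markers are lower on all day 15 arrays than on all day 8 arrays, the axonal motors are higher, and the y axes do not start at 0.

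Among the axonal motors, KIF21B had the largest increase. It is a kinesin-4 of neurons that carries cargo and slows microtubule growth in axons and dendrites. Its signal was 8.92, 9.23 and 9.18 on day 8 and 10.90, 10.62 and 10.35 on day 15, without overlap. The change was 1.51 (SE 0.14, adjusted p = 1.4e-07). The 2 probes of the gene rose by unequal amounts, 0.86 and 2.17, and carry the accessions of different transcripts. Its closest relative KIF21A changed by 0.10, with an interval of -0.42 to 0.62.

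The heavy chains of kinesin-1 differed in their changes. KIF5A, the neuronal heavy chain that is mutated in spastic paraplegia, went from 9.10, 9.19 and 8.70 to 9.58, 9.58 and 9.86. The groups did not overlap, and the change was 0.67 (SE 0.15, adjusted p = 0.003). KIF5B, the heavy chain of most tissues, was 9.76, 9.94 and 9.70 on day 8 and 9.76, 9.93 and 9.96 on day 15. It changed by 0.08, with an interval of -0.12 to 0.29. KIF5C, also neuronal, was 14.33, 14.54 and 14.49 and then 14.56, 14.76 and 14.50, a change of 0.16 that was not called (interval -0.04 to 0.36). KLC1, the light chain that binds cargo in neurons, had a change of 0.30 (adjusted p = 0.14), although its 3 day 15 arrays (13.26, 13.13 and 13.16) lay above its day 8 arrays (12.98, 12.90 and 12.78). KLC2, KLC3 and KLC4 changed by 0.14, 0.01 and 0.05 and were not called.

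All 3 motor subunits of heterotrimeric kinesin-2, which carries cargo in axons and builds cilia, were upregulated. KIF3C, the form enriched in neurons, rose from 10.25, 10.22 and 10.25 to 10.92, 10.70 and 10.61, a change of 0.50 (SE 0.12, adjusted p = 0.0042). KIF3A rose by 0.49 (adjusted p = 0.014) and KIF3B by 0.30 (adjusted p = 0.012), each without overlap. KIFAP3, the accessory subunit of the same complex, which the symbol rule leaves out, rose from 12.71, 12.80 and 12.74 to 13.09, 13.27 and 13.22. Its change was 0.45 (SE 0.07, adjusted p = 9.9e-05). KIF17, the homodimeric kinesin-2 of dendrites and cilia, changed by 0.10 and was not called.

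In the kinesin-3 family, KIF1A and KIF1B rose and KIF16B fell. KIF1A, the carrier of synaptic vesicle precursors, went from 15.77, 15.95 and 15.73 to 16.22, 16.24 and 16.05. The change was 0.36 (SE 0.10, adjusted p = 0.017). KIF1B, which carries mitochondria and synaptic vesicle precursors in its isoforms, changed by 0.35 (adjusted p = 0.034), from 8.78, 8.62 and 8.73 to 9.15, 8.86 and 9.16. Its 4 probes gave changes between -0.06 and 0.65, so that the gene's mean does not describe each transcript. KIF16B, a motor of early endosomes, fell from 6.51, 6.70 and 6.64 to 5.95, 6.24 and 5.99 (change -0.56, SE 0.14, adjusted p = 0.0065). KIF13A, KIF13B and KIF1C were not called, with changes of -0.32, 0.25 and 0.20, and neither was KIF2A, a kinesin-13 of axons, with 0.12.

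The largest increase of all motor genes was that of KIF26A, an atypical kinesin without motor activity that holds back growth factor signalling and has a role in neuronal development. It went from 7.63, 7.78 and 7.86 to 9.56, 9.76 and 9.58. The groups lay far apart, and the change was 1.87 (SE 0.11, adjusted p = 5e-10). Its paralog KIF26B went the other way, by -0.31 (SE 0.084, adjusted p = 0.01). KIF24, which holds back the growth of cilia, was well above background on all 3 arrays on day 8 and on none on day 15. Its decrease was called (adjusted p = 0.0014), with a bound, taken as for KIF18A, of 2.12-fold. The fitted change was -1.09 and ran from -2.16 to -0.4 over 12 settings. KIF19 changed by -0.49 (adjusted p = 0.048). The multiciliated marker FOXJ1 fell beside these genes, by 1.04 (adjusted p = 0.019), the called one of 4 such markers, and its part in them was not tested. The other 6 genes of this group, KIF6, KIF7, KIF9, KIF12, KIF25 and KIF27, were not called.

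In dynein-1, 5 subunits were called upward and 2 downward. DYNLL1, the LC8 light chain, which also binds many proteins outside dynein, fell from 14.27, 14.20 and 14.24 to 13.40, 13.34 and 13.50. The change was -0.82 (SE 0.074, adjusted p = 1.3e-07), and its 2 probes gave -0.85 and -0.79. Its paralog DYNLL2 changed by 0.25 and was not called (interval -0.35 to 0.85). DYNLRB1, the roadblock light chain, rose from 11.15, 11.15 and 11.30 to 11.83, 11.91 and 11.69, a change of 0.61 (SE 0.10, adjusted p = 0.00016). DYNLRB2 was called upward but was not well above background on any array of either group, and no fold change is given. DYNLT1, a Tctex light chain, rose by 0.28 (adjusted p = 0.01), and DYNLT3 was not called.

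DYNC1H1, the heavy chain that holds the motor, was 15.04, 14.94 and 14.99 on day 8 and 15.04, 14.87 and 14.83 on day 15. It was not called, with an interval of -0.28 to 0.14. DYNC1I1, the intermediate chain of neurons, was 9.74, 9.53 and 9.55 and then 10.07, 10.21 and 9.72, groups that overlap, with a change of 0.39 (SE 0.12, adjusted p = 0.024). DYNC1I2, the intermediate chain found in all tissues, changed by -0.09 and was not called. The light intermediate chains, which hold the cargo adaptors, moved in opposite directions: DYNC1LI2 rose by 0.35 (adjusted p = 0.0074) and DYNC1LI1 fell by 0.33 (adjusted p = 0.033). Of 7 tested genes of dynein-2 and ciliary dynein, DYNC2I1, an intermediate chain of dynein-2, was called, with a change of 0.30 (adjusted p = 0.023).

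Dynactin, which joins dynein to its cargo, did not move as a unit. DCTN2 (dynamitin), which links the shoulder of the complex to its filament, rose from 13.30, 13.28 and 13.26 to 13.59, 13.60 and 13.44, a change of 0.26 (SE 0.072, adjusted p = 0.011). DCTN1 (p150Glued), the subunit that binds dynein and microtubules, was 9.87, 9.97 and 10.04 and then 9.72, 9.30 and 9.42. Its change of -0.48 (SE 0.16, adjusted p = 0.042) had an adjusted p of 0.054 with the slide as a block. DCTN4 and DCTN6, of the pointed end of the filament, fell by 0.35 each, with adjusted p of 0.0092 and 0.021. DCTN5 and DCTN3 were not called. Of 6 other dynactin subunits limma called 0, and 1 had an unadjusted p under 0.05, ACTR10 of the pointed end with a change of 0.24 (adjusted p = 0.079), named after its value was seen.

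The same order of days held in the rotenone groups. For 16 of the 66 motor genes all 12 day 15 arrays lay on one side of all 12 day 8 arrays, 9 above and 7 below. Of all genes 12.9% were separated in this way, 5.52% above and 7.38% below. The 5 mitotic kinesins among them, all below, were KIF11, KIF15, KIF20A, KIF23 and KIF2C. The 5 axonal motors above were KIF1A, KIF21B, KIF3B, KIF3C and KLC1, and KIF16B lay below. KIF26A, DYNC1LI2, DYNLRB1 and DYNLT1 lay above, and DYNLL1 lay below. KIF21B ran from 8.91 to 9.62 (median 9.28) on day 8 and from 10.35 to 10.99 (median 10.65) on day 15, and KIF11 from 5.99 to 7.15 (median 6.56) and from 4.09 to 5.22 (median 4.91). KIF23, whose call in DMSO was lost with any array left out, ran from 4.72 to 5.62 and from 3.67 to 4.68. KLC1, not called in DMSO, ran from 12.10 to 12.98 and from 13.13 to 13.45. This is a description of arrays that include treated ones, and was not tested.

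After 24 h of rotenone the share of motor genes called on day 8 was near that of all genes. With 100 nM for 24 h, limma called 5 of the 66 genes on day 8, where 9.48% of all genes were called, 4.07% upward and 5.41% downward. KIF17 was upregulated, and DYNC1I1, DYNC2H1, DYNLL1 and KIF22 were downregulated. None of the 5 had a fold change over 1.5, which 3.45% of all genes passed. With 50 nM for 24 h there were 7 genes (8.02% of all genes called, 3.66% upward and 4.36% downward), KIF17 upward and DYNC1I1, DYNLL1, KIF1A, KIF22, KIF26B and KLC1 downward. Fits without replicate 1 of 50 nM called 3 of them, KIF17, KIF22 and KIF26B, and fits without replicate 1 of DMSO called 4. With 50 nM for 12 h there was 1, DYNLL1 downward, with a fold change over 1.5, which 1.75% of all genes passed (5.52% of all genes called, 2.66% upward and 2.85% downward). The 3 comparisons share the DMSO arrays and are not independent. With slides 2 and 3 alone, 2 arrays per group, limma called 0 motor genes in each of them, and 1.47% of all genes with 100 nM, 1.15% with 50 nM for 24 h and 0.472% at 12 h.

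**Figure D4:**
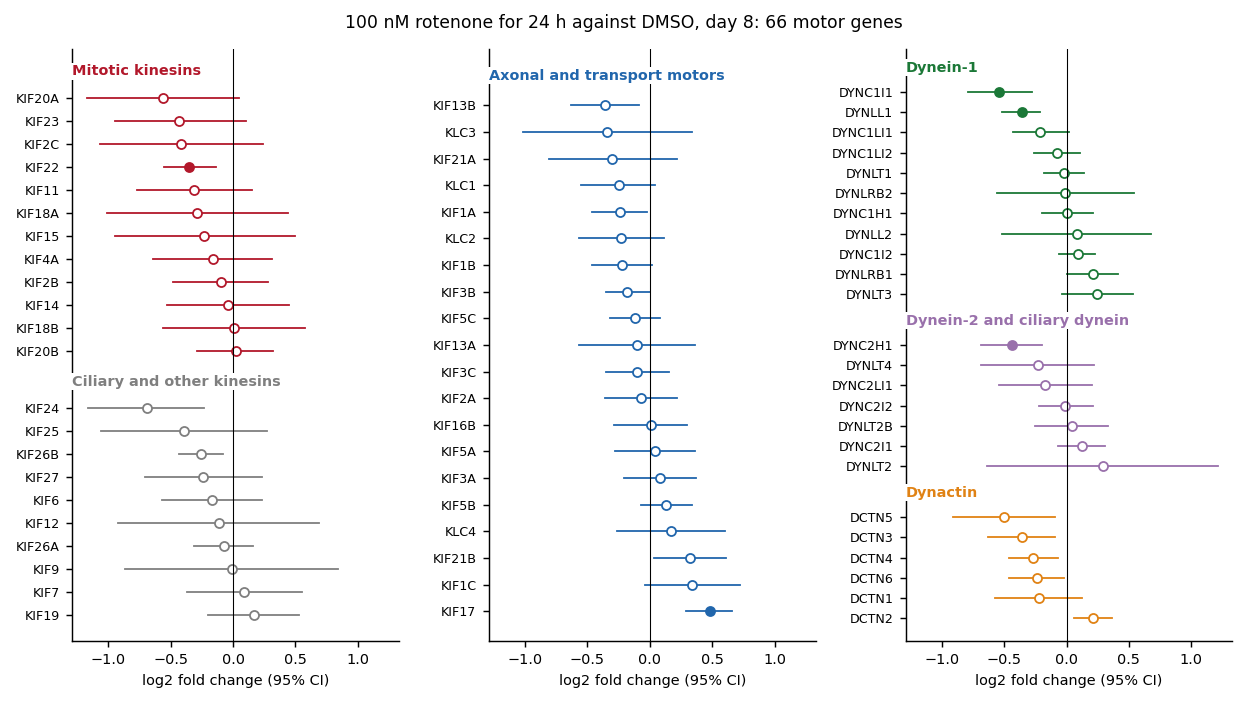
Change of each of the 66 motor genes with 100 nM rotenone for 24 h against DMSO on day 8, as log2 fold change on the x axis, with points for the estimate, lines for the 95% confidence interval and filled points for the 5 genes called. KIF17 at 0.48 lies on the right, and DYNC1I1, DYNC2H1, DYNLL1 and KIF22 lie between -0.54 and -0.35 on the left. KIF24 at -0.69 and KIF20A at -0.56 lie farther left and were not called. Most other intervals include 0.

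KIF17 was the motor gene that rose. Its signal was 9.76, 9.73 and 9.79 in DMSO, 10.06, 9.98 and 10.13 with 50 nM for 12 h, 10.18, 10.29 and 10.22 with 50 nM for 24 h, and 10.36, 10.21 and 10.15 with 100 nM for 24 h. All 9 rotenone arrays lay above the 3 DMSO arrays. The change was 0.48 (SE 0.089, adjusted p = 0.0016) with 100 nM and 0.47 (adjusted p = 0.0022) with 50 nM for 24 h, and it was 0.29 (adjusted p = 0.061) at 12 h.

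DYNLL1 was called in all 3 exposures. It was 14.27, 14.20 and 14.24 in DMSO, 13.70, 13.58 and 13.64 with 50 nM for 12 h, 13.84, 13.99 and 13.96 with 50 nM for 24 h, and 13.86, 13.95 and 13.81 with 100 nM. No rotenone array reached the DMSO arrays, and the 12 h group was the lowest. The changes were -0.60 (SE 0.074, adjusted p = 0.0001), -0.30 (adjusted p = 0.014) and -0.36 (adjusted p = 0.0036). The calls at 24 h depended on the processing. They were lost under 5 of 12 settings, among them both with 75th percentile scaling, with changes down to -0.09 (adjusted p up to 0.79) for 50 nM and -0.20 (adjusted p up to 0.36) for 100 nM. At 12 h the change ran from -0.65 to -0.46 over these settings, with the call lost under 3 of them (adjusted p up to 0.085). The difference between 24 h and 12 h of 50 nM, 0.29 (SE 0.074), was not called (adjusted p = 0.089).

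DYNC1I1, the neuronal intermediate chain of dynein-1, fell at 24 h. It was 9.74, 9.53 and 9.55 in DMSO and 8.99, 9.19 and 9.04 with 100 nM, without overlap. The change was -0.54 (SE 0.12, adjusted p = 0.007) with 100 nM and -0.50 (adjusted p = 0.013) with 50 nM for 24 h. At 12 h its arrays (9.68, 9.50 and 9.47) lay within the range of DMSO or close to it, with a change of -0.06 that was not called. The test between 24 h and 12 h gave -0.45 (SE 0.12, adjusted p = 0.11). DYNC1I2 changed by 0.09 with 100 nM (interval -0.06 to 0.23).

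DYNC2H1, the heavy chain of the ciliary dynein-2, was 9.03, 9.11 and 9.27 in DMSO and 8.61, 8.68 and 8.79 with 100 nM. The groups did not overlap, and the change was -0.44 (SE 0.12, adjusted p = 0.021). Fits without replicate 3 of DMSO, or without replicate 1 or 2 of 100 nM, did not call it (adjusted p up to 0.11). With 50 nM the changes were -0.32 (24 h) and -0.33 (12 h), not called. Some markers of multiciliated cells were lower beside it, and their part in it was not tested. Of 4 such markers 3 had negative changes, and FOXJ1, the factor that switches on motile cilia genes, was called. It was 5.89, 6.40 and 6.30 in DMSO and 5.17, 5.74 and 4.43 with 100 nM (change -1.08, SE 0.31, adjusted p = 0.031). RSPH1, of the radial spoke, changed by -0.38 (adjusted p = 0.055). DNAH5 changed by 0.12 and CCDC39 by -0.12, neither called, and CCDC39 was not well above background on any array of either group. The mean level of the 4 was 5.21, 5.47 and 5.64 in DMSO and 5.04, 5.26 and 4.93 with 100 nM. Among markers of other cell types, the neuron marker MAP2 (-0.57, adjusted p = 0.0028) and the progenitor marker VIM (0.42, adjusted p = 0.028) were called with 100 nM.

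KIF22 was 8.94, 8.72 and 8.81 in DMSO and 8.50, 8.46 and 8.47 with 100 nM (change -0.35, SE 0.098, adjusted p = 0.029). It was called in 1 of 6 fits that left out 1 array with 100 nM, in which its adjusted p reached 0.16, and in all 6 such fits with 50 nM for 24 h, where the change was -0.45 (adjusted p = 0.0069). In the table that the authors normalized the changes were -0.16 and -0.24, and neither was called.

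**Figure D5:**
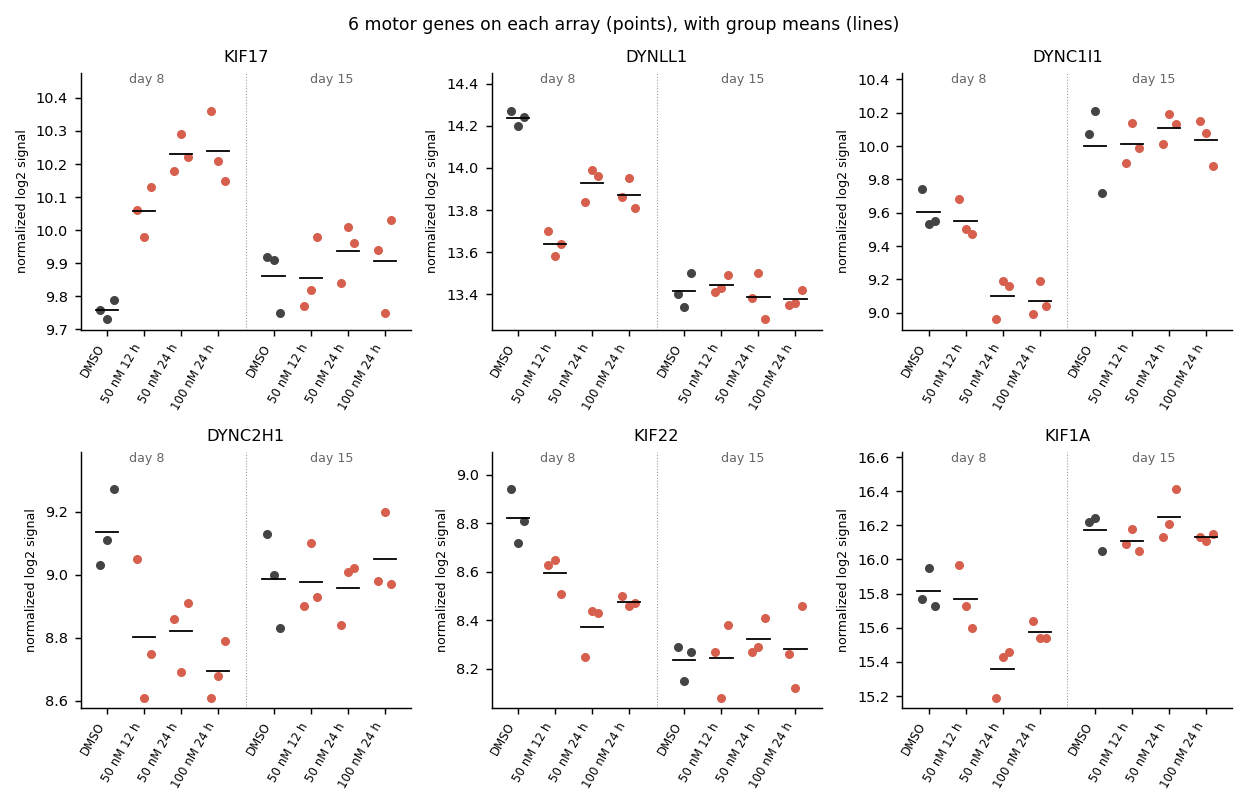
Normalized log2 signal (y axis) of KIF17, DYNLL1, DYNC1I1, DYNC2H1, KIF22 and KIF1A on every array, with points for single arrays in order of replicate and lines for group means, in DMSO (dark) and rotenone (red) groups. On day 8 the KIF17 arrays with rotenone lie above DMSO and those of DYNLL1 below, and on day 15 the groups overlap; the y axes do not start at 0.

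Of the axonal motors, 2 were downregulated with 50 nM for 24 h. KIF1A was 15.77, 15.95 and 15.73 in DMSO, 15.19, 15.43 and 15.46 with 50 nM and 15.64, 15.54 and 15.54 with 100 nM. It lay below DMSO on all arrays of both, but it was called with 50 nM (change -0.45, SE 0.10, adjusted p = 0.01) and not with 100 nM (-0.24, adjusted p = 0.18), and the difference between the doses was not called. The call with 50 nM was lost under 5 of 12 settings, among them both with 75th percentile scaling, with changes down to -0.12 (adjusted p up to 0.66). KLC1 was 12.98, 12.90 and 12.78 in DMSO and 12.10, 12.71 and 12.40 with 50 nM (change -0.48, SE 0.14, adjusted p = 0.041). Replicate 1 was the lowest. The call was lost in 5 of 6 fits that left out 1 array and with the slide as a block (adjusted p = 0.053). KIF26B changed by -0.38 (adjusted p = 0.007) with 50 nM for 24 h and by -0.26 (adjusted p = 0.061) with 100 nM. KIF24, a dim gene, had the largest change of the 66 with 100 nM, -0.69 (adjusted p = 0.058), and was not called. It was called with the well above background filter, in the authors' table (adjusted p down to 0.029) and without replicate 2 of 100 nM. Its change ran from -1.3 to -0.27 over 12 settings.

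Most other carriers of axonal cargo showed no change that could be called with 100 nM on day 8. The intervals were -0.28 to 0.36 for KIF5A, -0.07 to 0.34 for KIF5B, -0.32 to 0.08 for KIF5C, -0.21 to 0.37 for KIF3A and -0.35 to 0.15 for KIF3C. The heavy chain DYNC1H1 had one of -0.20 to 0.21 and DCTN1 one of -0.57 to 0.12. These intervals leave room for changes of up to about the size of those called. Of the 20 axonal and transport motors, 5 had an unadjusted p under 0.05 with 100 nM, as 20.6% of all genes did. Besides KIF17 and KIF1A these were KIF13B (-0.36, adjusted p = 0.097), KIF21B (0.32, adjusted p = 0.18) and KIF3B (-0.18, adjusted p = 0.23). KIF13B was called in the authors' table (adjusted p = 0.019) and without replicate 3 of 100 nM, and KIF21B with the processed signal (adjusted p = 0.031). The 20 axonal and transport motors had a median of -0.10 and all 66 motor genes one of -0.12, beside -0.02 for all genes.

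Mitotic kinesins had mostly negative changes with 100 nM (10 of 12, median -0.26), but 1 of them, KIF22, was called. KIF11 was 6.56, 6.47 and 6.45 with 100 nM, within or just below the range of DMSO (change -0.31, adjusted p = 0.49). KIF20A changed by -0.56 (adjusted p = 0.29) and KIF23 by -0.43 (adjusted p = 0.37). All 17 proliferation markers had negative changes too, with a median of -0.27 and none called by limma, while 1 had an unadjusted p under 0.05. The high values of DMSO replicate 1 in both lists moved with these changes, and their part in them was not tested.

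In dynactin, 5 of 6 subunits had an unadjusted p under 0.05 with 100 nM, as 20.6% of all genes did, and limma called none. Their adjusted p ran from 0.075 upward, but some were called under other settings. DCTN3 was called with the slide as a block (adjusted p = 0.029), the normexp offset of 50 and the authors' table (down to 0.014). DCTN2 was called with that offset, the well above background filter and the authors' table (adjusted p down to 0.024). DCTN4 was called with that offset and that filter (adjusted p down to 0.038). DCTN2 was higher, at 13.52, 13.48 and 13.46 against 13.30, 13.28 and 13.26, without overlap (change 0.21, adjusted p = 0.075). DCTN3 and DCTN4, with changes of -0.36 and -0.27, had adjusted p of 0.092 and 0.086, and DCTN5 and DCTN6 had changes of -0.50 and -0.24. The median of the 6 was -0.25.

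Of 38 adaptors and regulators of motors, 3 were upregulated with 100 nM (4.07% of all genes) and 1 was downregulated (5.41%). RILPL1, a protein that binds phosphorylated RAB GTPases near the centrosome, had the largest change. It was 7.52, 7.58 and 7.70 in DMSO and 8.60, 8.76 and 8.72 with 100 nM, far from overlap. The change was 1.1 (SE 0.099, adjusted p = 1.6e-06), and it was 0.90 and 1.0 with 50 nM for 24 h and 12 h. SNPH (syntaphilin), which anchors mitochondria in axons, changed by 0.35 (adjusted p = 0.01), and PAFAH1B1 (LIS1), which activates dynein, by 0.26 (adjusted p = 0.036). TRAK1, the adaptor between kinesin-1 and mitochondria, changed by -0.24 (adjusted p = 0.026), and KIFAP3, outside this list, by -0.28 (adjusted p = 0.014). PAFAH1B1 and TRAK1 were named after their values were seen. Between the days in DMSO, 8 of the 38 were upregulated (10.1% of all genes) and 7 downregulated (13.2%). FEZ1, a kinesin-1 adaptor of axons, changed by 1.12 (SE 0.081, adjusted p = 6.4e-09), RILPL1 by 0.85 and SNPH by 0.77.

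No motor gene was called between doses or between times. Between 100 nM and 50 nM at 24 h limma called none of the 66 and none of all genes (0%), and 3 motor genes had an unadjusted p under 0.05 (4.17% of all genes). Between 24 h and 12 h of 50 nM none was called, where 0.537% of all genes were. There 15 motor genes had an unadjusted p under 0.05 (10.9% of all genes), and the smallest adjusted p was 0.089, that of DYNLL1, followed by KIF1A (-0.41, adjusted p = 0.093).

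After wash-out no motor gene was called against DMSO on day 15. Limma called 0 of 66 with each of the 3 exposures, and 0% of all genes. An unadjusted p under 0.05 was found for 2 motor genes with 100 nM, where 7.21% of all genes had one, for 2 with 50 nM for 24 h (3.28%) and for 0 with 50 nM for 12 h (3.47%). KIF17 was 9.92, 9.91 and 9.75 in DMSO and 9.94, 9.75 and 10.03 after 100 nM. DYNLL1 was 13.40, 13.34 and 13.50 and then 13.35, 13.36 and 13.42, and DYNC1I1 10.07, 10.21 and 9.72 and then 10.15, 10.08 and 9.88. For all 3 the groups overlapped. The largest negative change with 100 nM, KIF25 with -0.85 (adjusted p = 0.63), came with a replicate 3 at 3.99 beside 5.65 and 5.44, on an array whose genes deviated most from their group means (SD 0.453, other arrays 0.205 to 0.313).

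Whether the effect of 100 nM differed between the days was tested as an interaction. None of the 66 motor genes was called, where 2.44% of all genes were, and 8 had an unadjusted p under 0.05 (14.4% of all genes). The difference was -0.43 (SE 0.13, adjusted p = 0.078) for KIF17, 0.57 (SE 0.17, adjusted p = 0.088) for DYNC1I1, 0.51 (adjusted p = 0.12) for DYNC2H1, 0.32 (adjusted p = 0.13) for DYNLL1 and 0.39 (adjusted p = 0.17) for KIF22. For these 5 genes the loss of the call after wash-out is therefore not shown to be a change of effect. The adaptor RILPL1 did pass this test, with -1.12 (SE 0.14, adjusted p = 0.00029).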

How the data were processed

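RNA of 24 samples was hybridised to 1-colour Agilent arrays. The deposited files hold the scanner's intensity values, extracted by the authors with Agilent Feature Extraction (11.5.1.1 per the labels, while the file headers give 11.5.1.1 or 12.0.0.7), and a table of log2 values that the authors normalized, used here as an alternative only. From the median signal and local background, normexp (offset 0), quantile normalization and a ComBat correction of slide 1 against the other slides were computed, as the study's methods order them. Spots had to exceed 1.1 times the 95th percentile of negative controls on 3 arrays, and flagged values were left out. Probes were named through their RefSeq accession and averaged per gene. Groups came from the labels. limma 3.58.1 in R 4.3.3 fitted all 24 arrays together (16 residual degrees of freedom) for 10 comparisons. The scripts were tested on simulated data. The number of arrays limits the precision, and the series' design text calls replicates wells, so p values measure the spread between wells.

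The members and lists were chosen with earlier results of these data known. Values per array were given for members with the smallest p in each list and comparison and for a fixed set of motors. Replicate numbers equal slide numbers. In values without batch correction, same-numbered arrays deviated from their group means together in all 84 pairs (lowest r 0.171, median 0.458). A fit with the slide as a block was therefore an alternative, beside other background, scaling, filter, batch and probe choices and leaving out each array. The authors' table holds 21733 probes.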

Additional observations from a re-analysis of the deposited data

How the results depend on the processing

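Counts of motor genes called depended on the processing, and the cause was not tested. For DMSO on day 15 against day 8 (32 as reported), the count was 15 without batch correction, 8 with slides 2 and 3 alone (9.88% of all genes), 19 with only the arrays compared (18.7%), and 22 to 24 with 1 array left out. The 8 with 2 slides, which were all among the 32, were KIF11, KIF2C, KIF22, KIF5A, KIF21B, KIF26A, DYNLL1 and DYNLRB1. For 100 nM for 24 h on day 8 (5), it was 10 with a normexp offset of 50 (13.8% of all genes), 2 without batch correction (2.97%), 0 with slides 2 and 3 alone (1.47%), 11 with a filter on spots well above background (16.6%), 2 with only the arrays compared (3.8%), 10 in the authors' table (14.5%), and 3 to 6 with 1 array left out. For 50 nM for 24 h (7), it was 4 with 75th percentile scaling (8.26% of all genes), 1 without batch correction (2.26%), 0 with slides 2 and 3 (1.15%), 2 with only the arrays compared (2.7%), and 3 to 7 with 1 array left out. The share of all genes called moved with these counts. For 50 nM for 12 h (1), where it ran from 0.32% to 10.1%, the count was 3 with the processed signal, the offset of 50, 75th percentile scaling, the well above background filter and the authors' table, 2 with the slide as a replicate block or the brightest probe, 0 without batch correction, with slides 2 and 3 or with only the arrays compared, and 1 to 3 with 1 array left out. For the interaction (0), it was 1 with the processed signal or 75th percentile scaling, 3 with the offset of 50, the well above background filter or the authors' table, 2 with the brightest probe, and 0 to 1 with 1 array left out. For 24 h against 12 h of 50 nM (0), it was 1 with the processed signal, the well above background filter or the authors' table, 3 with the offset of 50, and 0 to 1 with 1 array left out. Between doses and after wash-out it was 0 in every alternative run. The replicate block ended the calls of KLC1 with 50 nM for 24 h (adjusted p = 0.053) and, between the days, of DCTN1 (0.054) and KIF19 (0.067). It added that of DCTN3 with 100 nM (0.029), and with 50 nM for 12 h it gave 2 calls in place of 1. No other reported call against DMSO of day 8 was lost with it. Between the days the median of the mitotic kinesins (-0.67) was -0.33 with the offset of 50, -1.14 with the well above background filter and -0.96 with the processed signal, which moved the median of all genes to 0.15. That of the axonal and transport motors (0.18) ran from 0.16 to 0.26 over the settings run on the arrays. Normexp without the local background was added after seeing the data.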
